A study of Mus musculus with 6 samples.

Results

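The glucocorticoid receptor gene Nr3c1, its transcriptional targets Tsc22d3 and Fkbp5, the lipid, retinoid and vitamin D receptor genes Pparg, Rara, Rxra, Rxrb and Vdr, and the aryl hydrocarbon receptor gene Ahr were followed in group 2 innate lymphoid cells (ILC2s) of the mouse lung with and without SIRPα. The 9 genes were chosen by name, as ligand-activated receptors that act on ILC2s with 2 readouts of glucocorticoid signalling, and all 9 were among the 17831 genes of the count table and the 13623 genes tested. RNA was sequenced from 3 libraries of WT mice, labelled CB57BL/6, and 3 of SIRPα KO mice, labelled SIRPalphatm1Ynliu/J, a knockout of the whole animal rather than of ILC2s alone. All mice were 6 to 8 weeks old and received 0.5 μg of rmIL-33 through the nose on 3 days. Lung ILC2s were sorted on day 4 as CD45+, lineage-, CD127+ and ST2+ cells and then kept in culture with rmIL-2 and rmIL-7, for 18 h by the study's text and 24 h by a legend. No glucocorticoid, retinoid, vitamin D or other receptor ligand is named as added. The comparison asks whether the transcripts of these receptors and of their target genes differ between ILC2s with and without SIRPα, an inhibitory receptor that binds CD47.

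Nuclear receptors are transcription factors switched by small lipid-soluble ligands. The glucocorticoid receptor waits in the cytosol with HSP90 and immunophilins and moves to the nucleus when it binds corticosteroid, where it induces Tsc22d3, which encodes the anti-inflammatory protein GILZ, and Fkbp5, which encodes FKBP51, an immunophilin that lowers the receptor's affinity for its hormone. PPARγ, the retinoic acid receptors and the vitamin D receptor bind DNA together with a retinoid X receptor. PPARγ is a known regulator of lipid uptake and type 2 cytokine output in ILC2s, and AHR, a basic helix-loop-helix protein outside the superfamily, senses xenobiotics, tryptophan metabolites and microbial products.

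The 6 libraries held 13980491 to 19051504 reads on genes. The cDNA came from 10 pg of RNA per library with a kit that amplifies very small samples. By the labels' descriptions, WT replicate 1 is coded 37 and replicate 2 is coded 37V1, while SIRPα KO replicate 2 is coded 44 and replicate 3 is coded 44V1, so that each group may hold 3 libraries from 2 samples. The p-values then measure the spread between libraries, part of which may be technical. Sirpa had 149, 96 and 73 reads in WT and 48, 85 and 28 in SIRPα KO (adjusted p = 0.115, edgeR's quasi-likelihood test), and the part of the gene that the allele removes is not given in the sources used here. Summed over 15 ILC2 markers the level was 15500 to 16700 CPM (counts-per-million of the scaled library) in WT and 21300 to 21900 in SIRPα KO. Il5, Il2ra and Ptprc were higher and Id2 and Thy1 lower at an adjusted p under 0.05 in edgeR. These calls were 33.3% of the list, against 11.7% of all genes tested. By fitted values 9 markers were higher and 6 lower, with a median log2 fold change of 0.097 against -0.025 over all genes. With offsets for transcript length and GC content, introduced below, 7 were higher and 8 lower (median -0.02). Summed B cell markers ran from 217 to 479 CPM in WT and from 23.3 to 84.6 in SIRPα KO, and summed T cell markers from 206 to 274 and from 124 to 132. Macrophage markers summed to 421 to 935 CPM in WT and 502 to 759 in SIRPα KO, with C1qa, C1qb, C1qc and Fcgr1 at 0 in every WT library. Markers of mast cells, basophils and eosinophils summed to at most 55.8 CPM and those of stroma and epithelium to at most 112 CPM in any library. The part of these other cells in the results below was not tested, and in bulk RNA fewer cells of a type and less RNA per cell cannot be told apart.

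Promoter sequence was examined because Tsc22d3 and Fkbp5 share an activator and the retinoid X receptor is the common partner of 3 of the other receptors. RefSeq start sites (GRCm38.p6) gave 16 windows of 250 bases upstream for 7 of the 9 genes, all but Nr3c1 and Ahr. The windows shown overlap no annotated exon and are those of both glucocorticoid targets and the Rxra window with the most half-sites, with the nuclear receptor half-site AGGTCA in capitals on either strand (TGACCT on the other). They are chr17:28486150-28486399 on the minus strand for Fkbp5, chrX:140548572-140548821 on the minus strand for Tsc22d3, and chr2:27709042-27709291 on the plus strand for Rxra. Tsc22d3 also had start sites with windows at chrX:140542669-140542918 and chrX:140600523-140600772, which are not shown.
Fkbp5: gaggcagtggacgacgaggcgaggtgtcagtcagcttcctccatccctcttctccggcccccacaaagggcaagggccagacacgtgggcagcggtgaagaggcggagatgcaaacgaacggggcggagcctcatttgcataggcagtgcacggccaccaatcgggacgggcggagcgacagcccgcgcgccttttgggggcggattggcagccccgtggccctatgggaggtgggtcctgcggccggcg
Tsc22d3: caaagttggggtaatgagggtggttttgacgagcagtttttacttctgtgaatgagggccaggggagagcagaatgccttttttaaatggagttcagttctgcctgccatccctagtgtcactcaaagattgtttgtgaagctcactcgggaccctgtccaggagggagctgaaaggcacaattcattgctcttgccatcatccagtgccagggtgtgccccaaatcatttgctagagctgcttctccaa
Rxra: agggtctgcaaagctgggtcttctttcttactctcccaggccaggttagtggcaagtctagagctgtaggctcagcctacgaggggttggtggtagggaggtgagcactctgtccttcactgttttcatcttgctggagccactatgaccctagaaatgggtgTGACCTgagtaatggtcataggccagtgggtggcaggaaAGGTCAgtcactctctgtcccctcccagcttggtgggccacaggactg
The Rxra window held 2 half-sites in opposite orientation, starting 87 and 48 bases before the start site, and no other window of the 16 held more than 1. Both other windows with a half-site belonged to Pparg, at 28 and 9 bases before their start sites, giving 3 of 16 windows with the motif against 14% of 32851 windows genome-wide. The core of the glucocorticoid response element, ACANNNTGT, was in none of the 16 and in 5.84% of all windows. The AHR core GCGTG, searched on both strands, was in 5 of 16 windows, those of Pparg, Rara, Rxrb and Vdr, and in 28.2% of all. These matches describe letters within 250 bases of a start site and nothing further away, and ACANNNTGT, AGGTCA and GCGTG were counted separately with no rule on overlap.

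Per length of transcript, Pparg was the most abundant of the 9 in either genotype. Its level was 99.4 ± 8.41 CPM per kilobase of the longest annotated transcript (SD, n = 3) in WT and 91.1 ± 4.08 in SIRPα KO. A middle tier followed in WT, with Rara at 30.3 ± 4.40, Fkbp5 at 28.8 ± 10.2, Rxrb at 26.0 ± 0.216, Nr3c1 at 24.3 ± 0.669 and Tsc22d3 at 20.6 ± 3.01 on that scale. Within this tier the neighbours overlapped except for Rxrb and Nr3c1. The lowest tier held Ahr (3.53 ± 1.85), Vdr (3.04 ± 0.469) and Rxra (3.02 ± 0.816), which overlapped one another and not Tsc22d3. Of the retinoid X receptor genes, Rxrb stood in the middle tier with Rara and Rxra in the lowest with Vdr. In SIRPα KO the tiers were the same and Nr3c1, at 35.7 ± 2.0, stood second, above Rara (23.7 ± 0.693), Fkbp5 (21.6 ± 4.16) and Rxrb (21.2 ± 1.48), with no overlap between Nr3c1 and Rara. When the median transcript length replaced the longest, Pparg stayed first and Rxra last in both groups and 4 of 9 genes kept their WT rank. In SIRPα KO Vdr, at 29.5 CPM per kilobase of the median transcript, then stood above Tsc22d3 at 25.3.

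**Figure D1:**
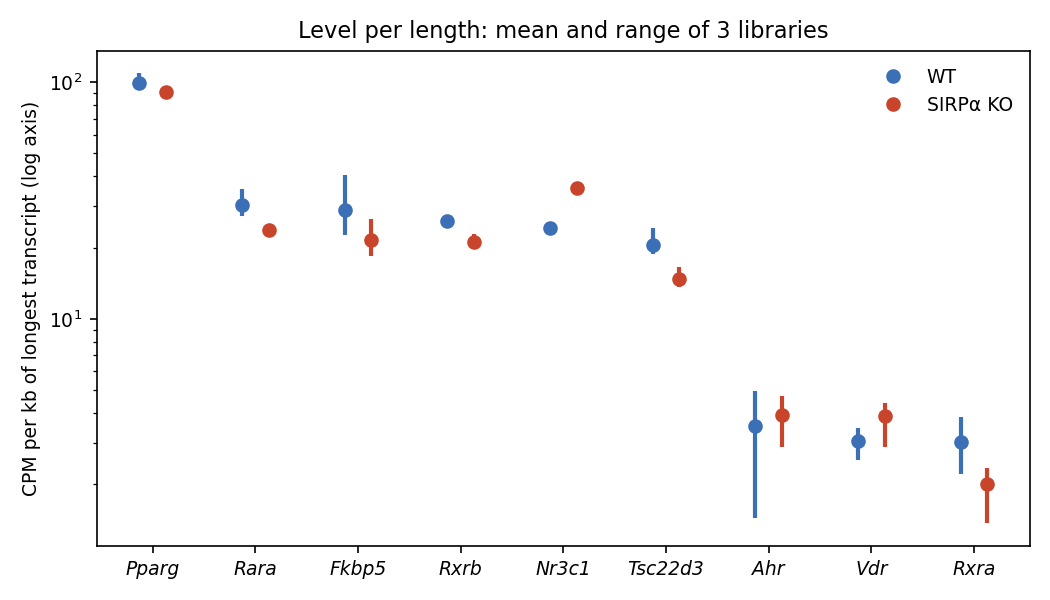
Level per transcript length of the 9 genes, in CPM per kilobase of the longest transcript on a log axis, ordered by WT. Points are means of 3 libraries and lines run from the lowest to the highest library. Pparg stands above the rest in both genotypes and Ahr, Vdr and Rxra form the lowest tier.

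Of the 9 genes, Nr3c1 alone passed an adjusted p under 0.05, where 11.7% of all genes tested did. By their fitted values 3 genes were higher and 6 lower in SIRPα KO. Their median log2 fold change was -0.30 against -0.025 over all genes tested. At an unadjusted p under 0.05 there were 4 of the 9 (Nr3c1, Tsc22d3, Rara and Rxrb), against 32% of all genes. For 5 of the 9 genes no WT library lay within the range of the SIRPα KO libraries, against 42.8% of all genes. Each of these counts lay within 2 genes of the count that the background share gives. Fold changes in these libraries also followed transcript length, from a median log2 fold change of -0.55 in the decile of genes with the shortest transcripts to 0.47 in the decile with the longest, over 9124 genes that averaged at least 3 in log2 CPM. The fold changes were also computed with offsets for transcript length and GC content. With these offsets 1 of the 9 genes was called, Tsc22d3 in place of Nr3c1, where 8.96% of all genes were. Fitted values with them were higher for 1 gene and lower for 8, where 7022 of all 13623 genes were lower. Nr3c1, Rxrb and Pparg were among the 8, at -0.0036, -0.024 and -0.039. The median log2 fold change was then -0.20, against -0.018 over all genes.

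**Figure D2:**
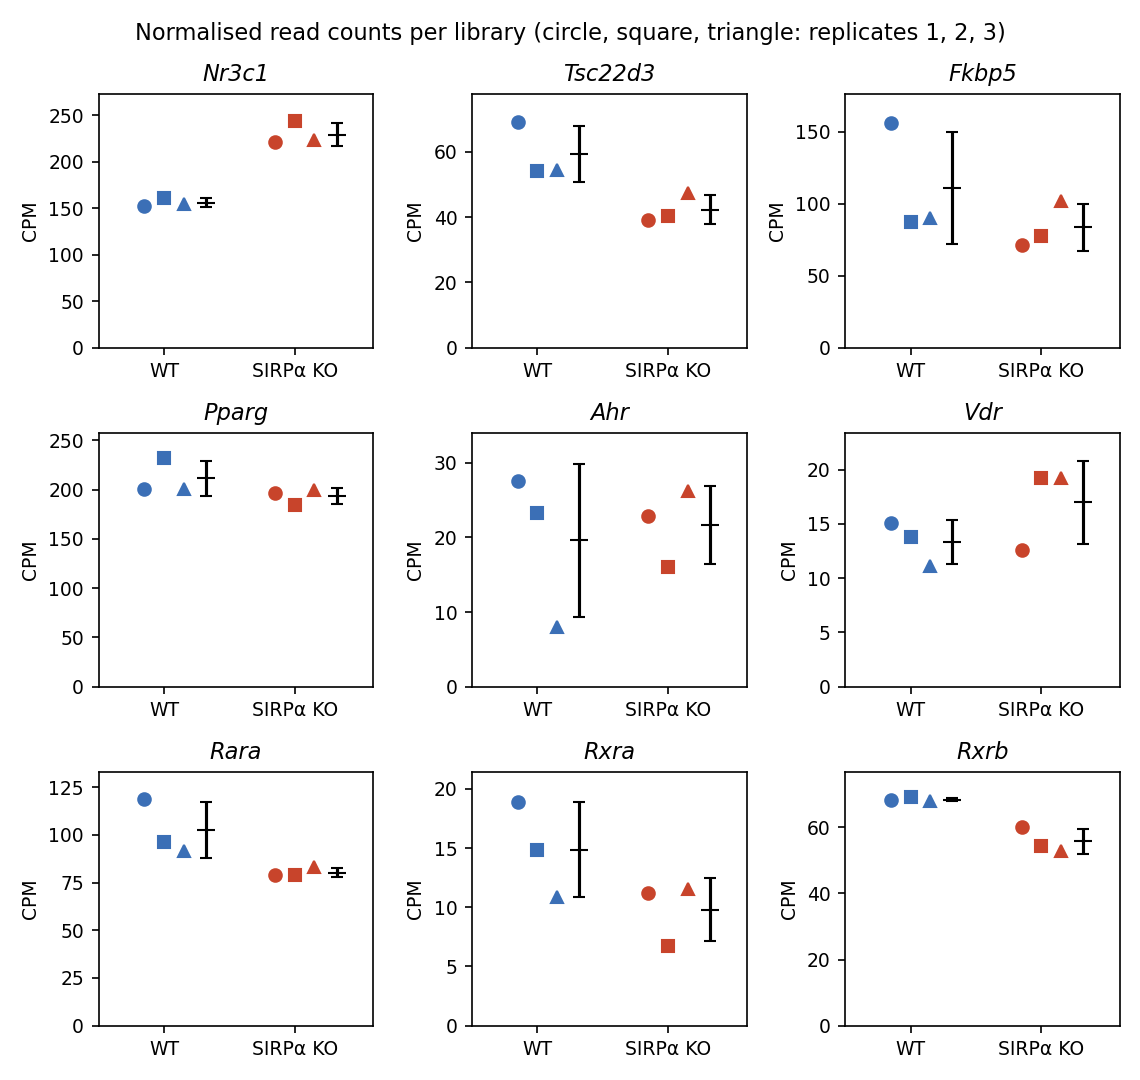
Normalised counts in CPM of the 9 genes in each library, from 0 on each axis. Blue points are WT and red points SIRPα KO, with circle, square and triangle for replicates 1, 2 and 3, and the black bar gives mean ± SD (n = 3). Nr3c1 is higher in every SIRPα KO library, Tsc22d3, Rara and Rxrb are lower in every one, and Fkbp5, Ahr, Vdr and Rxra overlap.

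Nr3c1 encodes the glucocorticoid receptor and lies on chr18:39410545-39519421 (mm10, minus strand). WT replicates 1, 2 and 3 had 152, 161 and 155 CPM, and SIRPα KO replicates 1, 2 and 3 had 221, 244 and 223 CPM. All 3 SIRPα KO libraries stood above all 3 WT libraries, and within each group the libraries were close together. Nr3c1 rose 1.47-fold, or 0.56 in log2 units (SE 0.10, 95% interval 0.32 to 0.79, adjusted p = 0.0201 in edgeR). The call was lost without SIRPα KO replicate 1, 2 or 3 (adjusted p = 0.112, 0.125 and 0.0951 in edgeR), where 0.112%, 0.12% and 0.12% of all genes were called, and with libraries of a code summed (adjusted p = 0.140), where 0.0686% were. Without any single library the difference stayed between 0.51 and 0.59. Its longest transcript, of 6436 bases, falls in the ninth length decile, where the median log2 fold change of all genes was 0.36. With both offsets the difference in Nr3c1 was -0.0036 (95% interval -0.36 to 0.35, adjusted p = 0.992). Offsets for length alone left 0.11 and those for GC content alone left 0.21. The corrected levels were 169, 164 and 240 CPM in WT and 183, 202 and 186 CPM in SIRPα KO, so that WT replicate 3 then stood above all others and the groups overlapped. Without WT replicate 3 the corrected log2 fold change was 0.19 (adjusted p = 0.157 in edgeR). The rise in read counts was therefore not resolved once length and GC content were taken into account.

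Tsc22d3, on chrX:140539528-140600659 (minus strand), had 69.2, 54.2 and 54.3 CPM in WT and 39.1, 40.2 and 47.3 CPM in SIRPα KO. Each SIRPα KO library was below each WT library, with WT replicate 1 the highest. The level was 1.40-fold lower in SIRPα KO by the fitted value, a log2 fold change of -0.49 (SE 0.16, 95% interval -0.87 to -0.11), which missed the threshold (adjusted p = 0.0871 in edgeR). It passed with the offsets for length and GC content, at a log2 fold change of -0.60 (95% interval -0.93 to -0.26, adjusted p = 0.0438 in edgeR), and in DESeq2 without them (adjusted p = 0.0368), where 26.9% of genes with an adjusted p were called. With the offsets it missed the threshold without WT replicate 1 (adjusted p = 0.0833), without SIRPα KO replicate 1, 2 or 3 (0.191, 0.189 and 0.107), with a replicate block (0.091) and with codes summed (0.13), and it was called in 7 of 25 alternatives in all. Corrected levels were 69.2, 55.0 and 59.9 CPM in WT and 37.6, 38.8 and 45.5 CPM in SIRPα KO, and did not overlap. The log2 fold change stayed between -0.68 and -0.36 over the alternatives, and was smallest without WT replicate 1. Its direction was the same in all 25 alternatives.

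Fkbp5, on chr17:28399094-28517527 (minus strand), had 156, 87.1 and 89.8 CPM in WT and 71.3, 77.3 and 102 CPM in SIRPα KO. WT replicate 1 stood far above the other 5 libraries, among which SIRPα KO replicate 3 was highest, and the groups overlapped. Its fitted difference of -0.41 in log2 units (SE 0.25, 95% interval -1.0 to 0.17) did not pass (adjusted p = 0.293 in edgeR). Without WT replicate 1 it was -0.08, so most of the difference without offsets rested on that library. With the offsets it was -0.54 (adjusted p = 0.160 in edgeR), and -0.29 when WT replicate 1 was also left out (adjusted p = 0.344). WT replicate 1 was also the highest library for Tsc22d3, Rara, Rxra and Ahr.

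**Figure D3:**
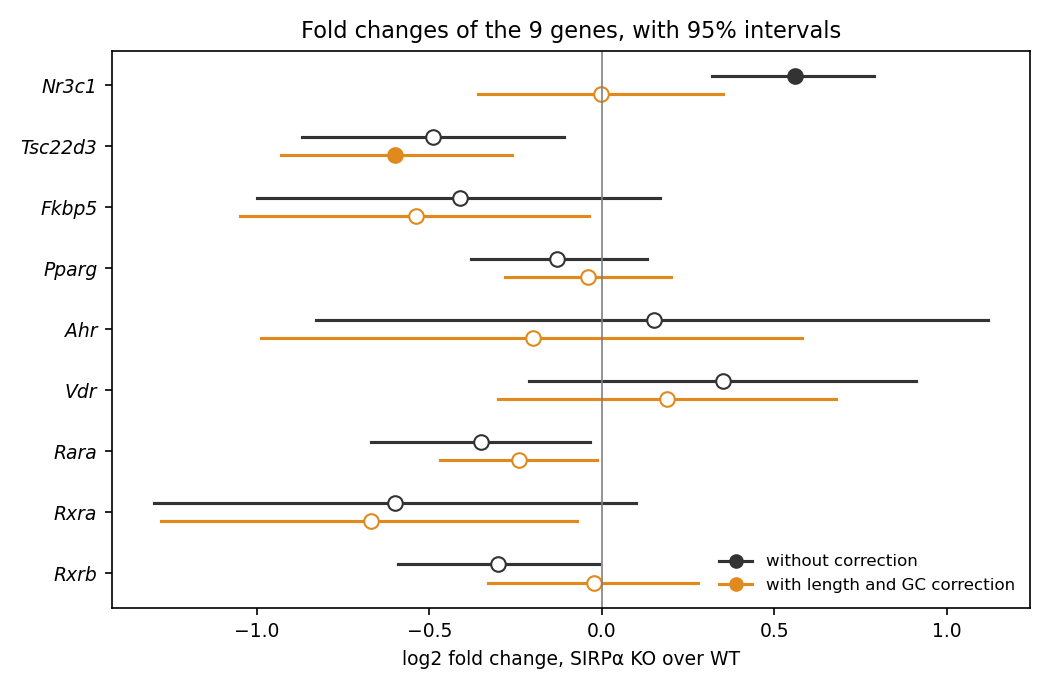
Log2 fold changes of the 9 genes, SIRPα KO over WT, with 95% intervals, without (dark) and with (orange) offsets for transcript length and GC content. Filled points have an adjusted p under 0.05. Nr3c1 moves from 0.56 to -0.0036 with the offsets and Tsc22d3 from -0.49 to -0.60.

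The list of glucocorticoid response genes, which also holds Tsc22d3 and Fkbp5, had more genes lower than higher. Of 20 tested, 14 had a lower and 6 a higher fitted value, where 7030 of all 13623 genes were lower. With the offsets 12 of the list were lower and 8 higher, where 7022 of all genes were lower. The 3 calls of the list at an adjusted p under 0.05 were falls, where 5.81% of all genes fell. The median log2 fold change was -0.23, against -0.025 over all genes, and -0.32 with the offsets. Il1r2, which encodes the decoy receptor for IL-1, had 259, 233 and 264 CPM in WT and 94.0, 95.8 and 96.8 CPM in SIRPα KO. No library of the groups came near the other, and the difference was -1.40 in log2 units (SE 0.11, adjusted p = 0.00125 in edgeR). Anxa1, which encodes the anti-inflammatory phospholipid-binding protein annexin A1, had 134, 137 and 147 CPM in WT and 64.6, 73.3 and 69.5 CPM in SIRPα KO. It fell by 1.01 in log2 units (adjusted p = 0.00769 in edgeR), with no overlap. Both falls passed with the offsets as well, at -1.16 for Il1r2 (adjusted p = 0.00179) and -0.95 for Anxa1 (adjusted p = 0.00375). Ddit4, an inhibitor of mTOR complex signalling, fell by 0.71 in log2 units (adjusted p = 0.0377 in edgeR) and had -0.32 with the offsets (adjusted p = 0.214). Nfkbia, the inhibitor of NF-κB and the highest of the list per length in SIRPα KO, went the other way, from 205, 184 and 269 CPM in WT to 281, 280 and 273 CPM in SIRPα KO, which passed with the offsets (log2 fold change 0.66, adjusted p = 0.00952) and not without (0.34, adjusted p = 0.157). Il1r2 was called under 23 of 25 alternative settings, all but those with the codes summed, Anxa1 under 20 and Ddit4 under 7. Without SIRPα KO replicate 1, 2 or 3 the list kept 1 call each time, that of Il1r2, where 0.112% to 0.12% of all genes were called. These genes answer to other signals besides corticosteroid, and no ligand was measured.

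The chaperones that hold the glucocorticoid receptor and the enzymes that convert its hormone had 14 genes tested, 8 higher and 6 lower, with a median log2 fold change of 0.055. Of these, 2 were called, both as rises, which is 14.3% against 11.7% of all genes. Hsp90ab1, the constitutive HSP90 and the highest gene of the list per length, had 2680, 2750 and 2750 CPM in WT and 3980, 3580 and 3600 CPM in SIRPα KO. It rose by 0.45 in log2 units (adjusted p = 0.0178 in edgeR; 0.48 with the offsets, adjusted p = 0.00813), with no overlap. Ppid, which encodes the immunophilin cyclophilin 40, had 110, 141 and 102 CPM in WT and 211, 225 and 200 CPM in SIRPα KO. It rose by 0.85 (adjusted p = 0.0173 in edgeR; 0.51 with the offsets, adjusted p = 0.0347). Stip1, the co-chaperone HOP, was called with the offsets (0.44, adjusted p = 0.0291) and not in edgeR without them (0.31, adjusted p = 0.0754). Hspa8, the constitutive HSP70, had a log2 fold change of -0.0043 and overlapping groups. Hsp90aa1, the inducible HSP90, had 0.55 (adjusted p = 0.0653 in edgeR), and WT replicate 1 was the lowest of its libraries at 644 CPM. No call of this list was made by edgeR without SIRPα KO replicate 1, 2 or 3, where 0.112% to 0.12% of all genes were called. At an unadjusted p under 0.05 there were 5 or 6 genes, against 2935 to 3183 of 14141 to 14242 genes.

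Pparg lies on chr6:115360951-115490399 (plus strand). It had 201, 232 and 201 CPM in WT and 196, 184 and 200 CPM in SIRPα KO. The lowest WT and the highest SIRPα KO library were almost level, and no library stood apart. The difference was -0.13 in log2 units (SE 0.11, 95% interval -0.38 to 0.13, adjusted p = 0.456 in edgeR) and -0.039 with the offsets (95% interval -0.28 to 0.20). Upper quartile factors gave -0.23 (adjusted p = 0.205 in edgeR). The intervals reflect the spread between libraries, part of which may be technical. Differences within them could not be resolved with 3 libraries per group.

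PPARγ response genes, which serve fatty acid uptake, storage and oxidation, went both ways. Of 21 tested, 11 were higher and 10 lower, and the median log2 fold change was 0.10 (-0.067 with the offsets). The calls were 1 rise and 1 fall, 9.52% of the list against 11.7% of all genes. Scd2, a fatty acid desaturase, had 43.6, 59.1 and 34.0 CPM in WT and 92.7, 92.6 and 88.8 CPM in SIRPα KO, and rose by 1.0 in log2 units (adjusted p = 0.0252 in edgeR; 0.69 with the offsets, adjusted p = 0.0263). Acadl, the mitochondrial long-chain acyl-CoA dehydrogenase, had 196, 218 and 221 CPM in WT and 142, 153 and 145 CPM in SIRPα KO, and fell by 0.53 (adjusted p = 0.0252 in edgeR; -0.51 with the offsets, adjusted p = 0.0186). The groups overlapped for neither gene. Dgat2, which makes triglyceride, was called with the offsets (0.75, adjusted p = 0.0118) and not without them (0.52, adjusted p = 0.0508). Among the highest genes of the list per length, Plin2, which coats lipid droplets, had a log2 fold change of -0.30 (adjusted p = 0.0804) and Ucp2, a mitochondrial carrier, had -0.058 (adjusted p = 0.754). No gene of the list was called by edgeR without SIRPα KO replicate 1, 2 or 3, where 0.112% to 0.12% of all genes were. At an unadjusted p under 0.05 there were 6 each time, against 2935 to 3183 of 14141 to 14242 genes. Scd2 also missed the threshold without WT replicate 1.

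Rara encodes retinoic acid receptor alpha and lies on chr11:98927818-98974942 (plus strand). It had 119, 96.3 and 91.7 CPM in WT and 78.7, 79.1 and 82.9 CPM in SIRPα KO. All SIRPα KO libraries lay below all WT libraries and close to one another, and WT replicate 1 was the highest. The difference was -0.35 in log2 units (SE 0.14, 95% interval -0.67 to -0.034, adjusted p = 0.126 in edgeR). It passed without WT replicate 3 (-0.42, adjusted p = 0.0437) and with offsets for length alone (-0.49, adjusted p = 0.0308), while offsets for GC content alone left -0.076 and both together -0.24 (adjusted p = 0.164).

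Rxrb, which encodes retinoid X receptor beta, lies on chr17:34031812-34038399 (plus strand). It had 68.1, 69.0 and 68.0 CPM in WT and 60.1, 54.4 and 52.7 CPM in SIRPα KO. The WT libraries were nearly level and every SIRPα KO library was lower. The log2 fold change of -0.30 (SE 0.13, 95% interval -0.59 to -0.0074) missed the threshold (adjusted p = 0.149 in edgeR), and with the offsets it was -0.024 (95% interval -0.33 to 0.28).

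Rxra, which encodes retinoid X receptor alpha and lies on chr2:27676440-27762957 (plus strand), had 18.9, 14.8 and 10.9 CPM in WT and 11.2, 6.72 and 11.5 CPM in SIRPα KO, from 128 to 328 reads. WT replicate 3 fell among the SIRPα KO libraries, and SIRPα KO replicate 2 was the lowest. Its log2 fold change of -0.60 was the furthest from 0 among the 9 genes, with a wide interval (SE 0.30, 95% interval -1.30 to 0.099, adjusted p = 0.211 in edgeR). The fitted value stayed negative in all 25 alternatives, between -0.89 and -0.38, and passed in none.

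Vdr, on chr15:97854425-97910630 (minus strand), had 15.1, 13.8 and 11.1 CPM in WT and 12.6, 19.2 and 19.2 CPM in SIRPα KO, from 167 to 366 reads. SIRPα KO replicates 2 and 3, which share a code, stood above all WT libraries and replicate 1 among them. The difference was 0.35 in log2 units (SE 0.24, 95% interval -0.21 to 0.91, adjusted p = 0.347 in edgeR) and 0.19 with the offsets.

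Genes that make, carry or break down vitamin D and retinoids, in a list that also holds Tgm2 and Ccr9, were mostly not detected well enough to test. Of the list, 15 of 23 were in the table and 8 were tested, 3 higher and 5 lower, with a median log2 fold change of -0.23. Rdh12, a retinol dehydrogenase, had 11.5, 8.96 and 16.9 CPM in WT and 3.83, 5.40 and 4.59 CPM in SIRPα KO and fell by 1.43 in log2 units (adjusted p = 0.0297 in edgeR; -1.53 with the offsets, adjusted p = 0.0283). The groups did not overlap. The call was lost without WT replicate 1 and without each SIRPα KO replicate, the latter being settings where 0.112% to 0.12% of all genes were called. Rdh11, a related retinal reductase and the highest of the list per length, had a log2 fold change of 0.41 (adjusted p = 0.111), and Rdh10, which oxidises retinol, -0.15 (adjusted p = 0.806).

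Ahr lies on chr12:35497974-35535038 (minus strand), and 2.06% of its exon bases are shared with an antisense gene. It had 27.5, 23.3 and 8.01 CPM in WT and 22.9, 16.0 and 26.2 CPM in SIRPα KO. WT replicate 3 stood far below the other libraries and the groups overlapped. Its fitted difference of 0.15 in log2 units (SE 0.42, 95% interval -0.83 to 1.12, adjusted p = 0.835 in edgeR) turned to -0.22 when WT replicate 3 was left out, came to 0.48 when WT replicate 1 was, and turned to -0.20 with the offsets, so no direction was set. The WT libraries differed among themselves by more than the group means did.

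Around Ahr, 13 complex members and response genes were tested, of which 11 were higher and 2 lower, where 6593 of all 13623 genes were higher. With the offsets all 13 were higher, where 6601 of all genes were. The median log2 fold change was 0.55 and, with the offsets, 0.30. The list held 2 called rises, where 5.94% of all genes were. Hsp90ab1, which also holds AHR in the cytosol, is described above. Ido2, which encodes a tryptophan-degrading enzyme, had no read in any WT library and 0.703, 0.735 and 0.930 CPM in the SIRPα KO libraries, at least 4.05-fold higher against a floor of 3 reads per WT library (adjusted p = 0.0246 in edgeR). With so few reads the floor covers counting error only. Ido2 was called in 12 of 24 alternatives, and was not with DESeq2, the replicate block or codes summed. The classical targets were low or did not pass: Ahrr, the AHR repressor, had 9.72, 10.7 and 5.30 CPM in WT and 23.4, 13.0 and 13.0 CPM in SIRPα KO (log2 fold change 0.94, adjusted p = 0.117), Tiparp 0.58 (adjusted p = 0.142) and Cyp1b1 at most 2.05 CPM in any library. These 3 were chosen for naming after their values were seen. Nqo1, the highest response gene of the list per length, had a log2 fold change of 0.053 with overlapping groups (adjusted p = 0.758). Without SIRPα KO replicate 1, 2 or 3 edgeR called no gene of the list, where 0.112% to 0.12% of all genes were called. At an unadjusted p under 0.05 there were 4 to 6, against 2935 to 3183 of 14141 to 14242 genes.

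Coregulators are the proteins that nuclear receptors recruit to open or close chromatin. Of 19 tested, 12 were higher and 7 lower, 5 rose and 1 fell, and the median difference was 0.48 in log2 units. The calls were 31.6% of the list, against 11.7% of all genes. Ep300, a histone acetyltransferase, had 33.4, 45.6 and 34.8 CPM in WT and 105, 96.2 and 96.8 CPM in SIRPα KO, and rose by 1.39 in log2 units (adjusted p = 0.00746 in edgeR). Ncoa3, a steroid receptor coactivator, had 123, 123 and 88.8 CPM in WT and 235, 271 and 227 CPM in SIRPα KO, and rose by 1.13 (adjusted p = 0.0124 in edgeR). Both stayed past the threshold with the offsets, at 0.97 (adjusted p = 0.0112) and 0.74 (adjusted p = 0.00818). Ncor1, the core of the NCoR corepressor complex, was called as lower with the offsets (-0.71, adjusted p = 0.0496) and not without them (-0.21, adjusted p = 0.428). Lcor (0.94), Tbl1xr1 (0.93) and Ncoa4 (0.61), a corepressor, a subunit of the NCoR complex and a coactivator also known as a ferritin receptor, rose without the offsets and had adjusted p = 0.101, 0.118 and 0.385 with them. Gps2, another subunit of the NCoR complex, had 62.6, 58.9 and 65.5 CPM in WT and 32.1, 37.7 and 41.4 CPM in SIRPα KO. It fell by 0.75 (adjusted p = 0.0252 in edgeR), and had -0.27 with the offsets (adjusted p = 0.272). The median transcript of the list was 7329 bases long, against 3057 bases over all genes tested, and with the offsets its median log2 fold change was 0.091. Prmt1 (-0.12) and Hdac3 (0.21), an arginine methyltransferase and a histone deacetylase among the highest of the list per length, did not pass. No coregulator was called by edgeR without SIRPα KO replicate 1, 2 or 3, where 0.112% to 0.12% of all genes were. At an unadjusted p under 0.05 there were 7 or 8, against 2935 to 3183 of 14141 to 14242 genes.

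**Figure D4:**
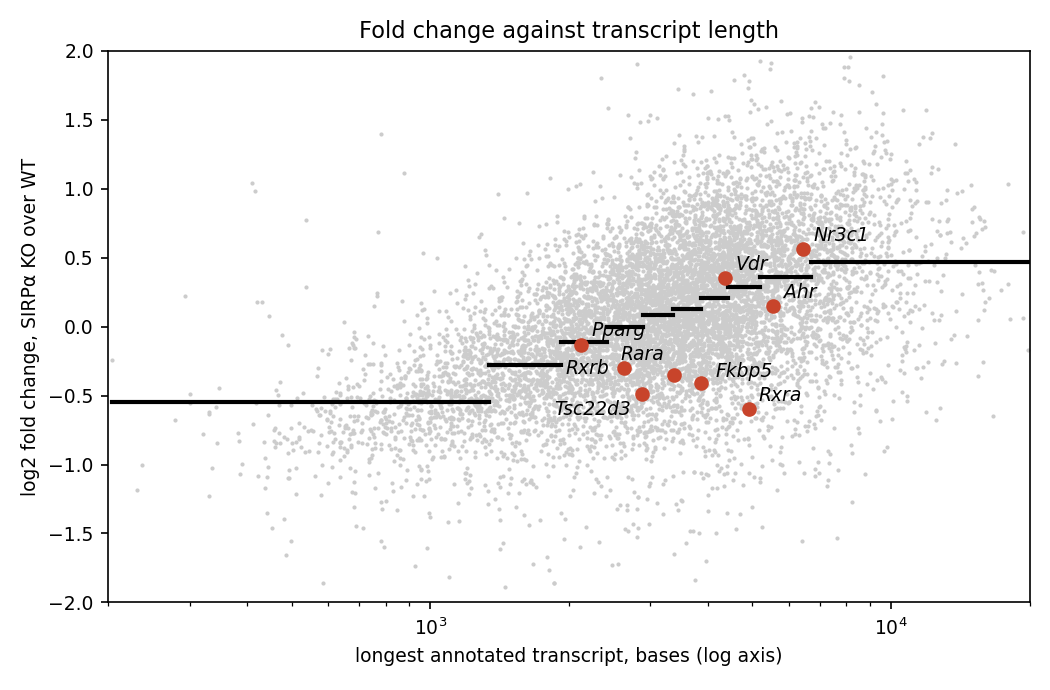
Log2 fold change, SIRPα KO over WT, against the length of the longest annotated transcript (log axis) for 9124 genes that averaged at least 3 in log2 CPM. Black lines are decile medians, from -0.55 to 0.47, and red points the 9 genes, where 42 genes lie beyond the vertical and 10 beyond the horizontal limits drawn. Nr3c1, at 0.56, lies above the median of its decile, 0.36, while Rxra, Fkbp5, Rara and Tsc22d3 lie furthest below it.

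Across the nuclear receptor superfamily, 28 of 49 genes were in the table and 23 were tested, 10 higher and 13 lower, with a median log2 fold change of -0.12 (-0.039 with the offsets). Only Nr3c1 and Nr1d2 were called, both as rises, which is 8.7% against 11.7% of all genes. Nr1d2, which encodes the haem-binding clock repressor REV-ERBβ, had 19.4, 31.0 and 22.2 CPM in WT and 56.8, 50.3 and 51.9 CPM in SIRPα KO. All SIRPα KO libraries were higher, by 1.13 in log2 units (SE 0.20, adjusted p = 0.0186 in edgeR), which was 0.70 with the offsets (adjusted p = 0.0607). Nr1h2, the oxysterol receptor LXRβ and second to Pparg per length in WT at 52.5, had a log2 fold change of -0.37 (adjusted p = 0.0796) and 0.021 with the offsets. Rora, which ILC2s need for their development, had an adjusted p of 0.0186 in edgeR with the offsets (-0.55) and was not called without them (0.095). Neither Nr3c1 nor Nr1d2 was called without SIRPα KO replicate 1, 2 or 3, where 0.112% to 0.12% of all genes were called.

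**Figure D5:**
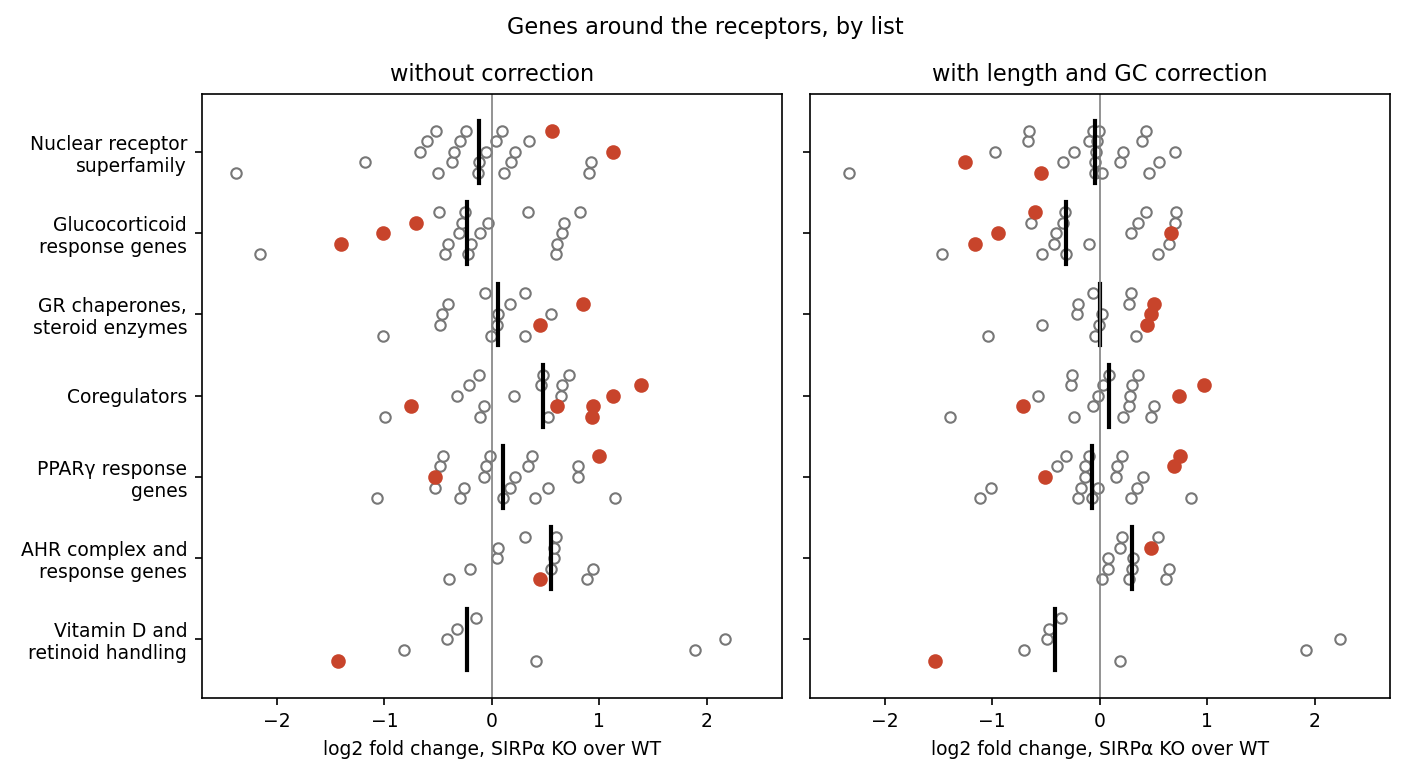
Log2 fold changes, SIRPα KO over WT, of the tested genes of 7 lists, without (left) and with (right) offsets for transcript length and GC content. Each point is a gene, filled red at an adjusted p under 0.05, and black bars are list medians. Ido2, with no WT read, is counted in the median and not drawn. The coregulator median moves from 0.48 to 0.091 and that of glucocorticoid response genes from -0.23 to -0.32.

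Genes with the pattern closest to each of the 9 were found by the root mean square difference of log2 CPM over the 6 libraries, each gene centred on its mean, among 9137 genes. Closest to Nr3c1 was Noc2l, at a difference of 0.0417, with 260, 275 and 279 CPM in WT and 380, 398 and 377 CPM in SIRPα KO. Closest to Tsc22d3 was Pnrc1, at 0.0234, with 86.4, 65.3 and 67.8 CPM in WT and 47.6, 50.5 and 59.7 CPM in SIRPα KO. For Pparg, Rxrb and Rara the nearest genes, Chaf1b (0.0353), Nt5c3b (0.0360) and Ccdc9 (0.0365), were as near. Vdr (Pced1a, 0.0666), Fkbp5 (Gatad2a, 0.0755), Rxra (Gna11, 0.114) and Ahr (BC055324, 0.126) had more distant neighbours. The median distance of all candidates was 0.391 for Vdr, 0.463 for Fkbp5, 0.531 for Rxra and 0.638 for Ahr. It was 0.378 for Nr3c1, 0.395 for Tsc22d3, 0.308 for Pparg, 0.326 for Rxrb and 0.353 for Rara. With 6 libraries and so many candidates, a close match describes these libraries alone.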

How the data were processed

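The data were RNAseq libraries of cultured lung ILC2s, 3 from each genotype. Reads were aligned by the authors in Partek (STAR, mm10, GENCODE M21), and what they deposited were expected counts per gene that carry no scaling. Every gene of the table totals at least 10 reads. The versions stated by the paper and by the submitters' processing notes differ (the notes name Partek 10.0 and STAR 2.7.8). Strand use is not given in the sources used here, and reads on Ahr could include those of an overlapping antisense gene. 

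Expected counts were rounded to whole numbers. The filter was filterByExpr of edgeR 4.0.16 in R 4.3.3, with minimums of 10 reads per library and 15 overall. TMM scaling and a quasi-likelihood fit of genotype followed, and p-values were adjusted by Benjamini-Hochberg over the 13623 genes that passed, with 0.05 as the threshold. The standard error came from the F statistic, and intervals are 95%. CPM use the TMM-scaled library size. Levels per length used the longest annotated transcript. The offsets were splines with 5 degrees of freedom each for transcript length and GC content, fitted per library over 8886 genes outside the lists. Symbols matched the annotation directly for 17400 genes, by synonym for 189 and not for 242. Of tested genes, 99% had a length and GC content. The scripts were tested on simulated data. Alternatives were DESeq2 1.42.0, 3 other scalings, 2 other filters, a replicate block, libraries of a code summed, leaving out each library, and the offsets, alone and with the block, the summing or a library left out. Length alone, GC content alone, and the offsets with the summing or a library left out were added after the data were seen. Figures were drawn with matplotlib 3.10.9. Named from each list were the called genes (where over 4 passed in a direction, the 4 with the largest change) and the 3 with the highest level per length. Ncoa4, Ncor1, Stip1, Dgat2, Rora, Ahrr, Tiparp and Cyp1b1 were chosen after their values were seen. The 9 genes and all lists were chosen with earlier results of these data known.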

Additional observations from a re-analysis of the deposited data

How the results depend on the processing

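Among the 225 fold changes that 25 alternatives gave for the 9 genes, 181 kept their direction and side of the threshold, 10 kept their direction and lost a call, 9 gained one and 25 turned direction, none of the turned values with an adjusted p under 0.05. The losses were all of Nr3c1, which with its turned values was not called in 15 of 25 alternatives. The cause was not tested. Of all genes, DESeq2 called 3214, the replicate block 1118, the offsets with the block 396, codes summed 10 (3359 at an unadjusted p under 0.05) and the offsets with codes summed 14; leaving out a library gave 16 to 2606 calls, and with the offsets 74 to 1656 (91, 120 and 1016 among them). Of the 9 genes, 2 were called by DESeq2, upper quartile factors and length offsets alone, and 0 with codes summed, the offsets with the block and the offsets with codes summed (2 at an unadjusted p under 0.05 in each); leaving out a library gave 0 to 2, and with the offsets 0 to 1.

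Nr3c1 turned from 0.56 to -0.0036 with the offsets, -0.095 with codes summed too, and ran from -0.10 to 0.19 with the offsets and a library left out (-0.086, -0.10 and -0.043 without WT replicate 1, WT replicate 2 and SIRPα KO replicate 2). Pparg turned to 0.010 with the offsets and codes summed, and with the offsets to 0.058 without WT replicate 2 and 0.0054 without SIRPα KO replicate 2. Rxrb turned to 0.072 with GC offsets alone, 0.053 with the offsets and codes summed, and with the offsets to 0.061, 0.012 and 0.080 without WT replicate 2, SIRPα KO replicate 2 and SIRPα KO replicate 3. Ahr ran from -0.22 to 0.48 without a library (-0.22 and -0.0043 without WT replicate 3 and SIRPα KO replicate 3), and turned to -0.20 with the offsets, -0.15 with the block added or with length alone, -0.039 with GC alone and -0.033 with the offsets and codes summed. With the offsets and a library left out Ahr ran from -0.50 to 0.078 (-0.13, -0.24, -0.019 and -0.36 among them).

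Counts by list moved as follows. The main edgeR fit tested 23 superfamily, 20 glucocorticoid response, 14 chaperone, 19 coregulator, 21 PPARγ, 13 AHR and 8 vitamin D and retinoid genes. Over all genes tested, leaving out a library gave 16 to 2606 calls, and with the offsets 74 to 1656. DESeq2 called 5 of 28 superfamily genes in the table, 6 of 20 glucocorticoid response genes and 7 of 15 chaperones. It called 7 of 21 PPARγ, 4 of 15 AHR and 4 of 15 vitamin D and retinoid genes. Over all genes it called 3214 of 17831, or 26.9% of those with an adjusted p. Codes summed called 0 in every list, with or without the offsets, where 10 of 14581 genes were called without them and 14 with them. The offsets with the block called 1 superfamily gene, 1 chaperone, 2 coregulators, 1 PPARγ, 1 AHR and 0 vitamin D and retinoid genes, and the block alone 1 PPARγ, 1 AHR and 0 vitamin D and retinoid genes. Upper quartile factors called 4 PPARγ genes. Of all 13623 genes tested, these factors called 1713, the block alone 1118 and the offsets with the block 396. The offsets, length alone and GC alone each called 3 coregulators, and length alone called 4 superfamily and 5 glucocorticoid response genes. Over all genes tested these settings called 1220, 1476 and 1281. Leaving out a library gave 0 to 4 calls in the superfamily, 1 to 6 in glucocorticoid response genes, 0 to 7 in chaperones, 0 to 10 in coregulators, 0 to 7 in PPARγ, 0 to 4 in AHR and 0 to 1 in vitamin D and retinoid genes, and with the offsets 0 to 3, 2 to 5, 0 to 6, 0 to 5, 0 to 6, 0 to 2 and 0 to 1.

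The deviations of same-numbered libraries correlated at -0.143, 0.191 and 0.045, so the numbers were not taken to pair them; Nr3c1 stayed called with the block. Upper quartile factors moved the median of all genes to -0.13. With the median transcript length 4 of 9 genes kept their rank. The few libraries, the codes that some share and the trend with transcript length each limit these data. The coefficient of biological variation that edgeR estimated was 38.0% among WT and 15.2% among SIRPα KO libraries, and Rxra, Vdr and Ahr rest on 121 to 479 reads per library.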
